A study of Mus musculus with 8 samples.

Results

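The Sox genes encode transcription factors that bind DNA through a shared HMG box and act at successive steps from neural progenitor to neuron or glial cell. Here 10 of them were followed in single cells of the early postnatal mouse frontal cortex, with and without Foxp2 in the cortical excitatory lineage: Sox1 and Sox2 (the SOXB1 subgroup), Sox21 (SOXB2), Sox4 and Sox11 (SOXC), Sox5 and Sox6 (SOXD), and Sox8, Sox9 and Sox10 (SOXE). These 10 genes were chosen by name, with earlier results of these data known, and all 10 were found by symbol in both count tables. The table of cells sorted for Drd1a-tdTomato (called D1Tom) held 18 Sox genes among 17836 genes in 11494 cells. The table of cells sorted for golli-τ-eGFP (called GTE) held 18 Sox genes among 15769 genes in 11382 cells.

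Tissue was frontal isocortex, parted from the olfactory areas, of mice at postnatal day 7 on a C57BL/6J background. Every mouse carried floxed Foxp2 alleles (Foxp2 flox/flox) together with the Drd1a-tdTomato or the golli-τ-eGFP transgene, controls included. The conditional knockouts (cKO) also had Emx1-Cre, and the controls were littermates without Cre. Emx1-Cre acts in dorsal telencephalic progenitors and their progeny, that is excitatory neurons and most cortical glia, so interneurons, microglia and endothelial cells keep Foxp2. The D1Tom reporter is a bacterial artificial chromosome transgene (line 6). Both sorts select cells by a transgene's activity and not by cell type. Each sort had 2 control and 2 cKO libraries. In the order control 1, control 2, cKO 1, cKO 2, which is kept for every run of 4 values below, the D1Tom mice were female, female, female and male, and the GTE mice male, male, male and female. The labels do not say whether a library held 1 animal or a pool, so each p-value measures only the spread between libraries.

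SOXB1 proteins keep neural progenitors undifferentiated, and Sox2 stays on in astrocytes and in precursors of oligodendrocytes. Sox21 counteracts SOXB1 activity as neurons form. The SOXC proteins Sox4 and Sox11 promote neuronal maturation in newly made neurons. Among the SOXD genes, Sox5 is known for deep-layer corticofugal neurons and Sox6 for interneurons from the medial ganglionic eminence, and both also act in oligodendrocyte precursors. Of the SOXE genes, Sox9 drives the switch to gliogenesis and marks astrocytes, Sox10 specifies and maintains the oligodendrocyte lineage, and Sox8 acts beside them.

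On the GRCm38 build, Sox1 lies at chr8:12395519-12399555 (plus strand), Sox2 at chr3:34649995-34652461 (plus), Sox21 at chr14:118233233-118237030 (minus), Sox4 at chr13:28948919-28953699 (minus) and Sox11 at chr12:27334268-27342718 (minus). Sox5 lies at chr6:143828425-144782287 (minus), Sox6 at chr7:115470872-116040776 (minus), Sox8 at chr17:25565893-25570686 (minus), Sox9 at chr11:112782210-112787757 (plus) and Sox10 at chr15:79154913-79164490 (minus). In the GENCODE M21 annotation, exons of Sox21, Sox4, Sox5 and Sox8 overlap a gene on the opposite strand (Gm4675, Gm26735, Sox5os1 and 2810468N07Rik), and Sox1 overlaps the miRNA gene Gm25239 on its own strand. None of these partners is a row of the tables. Whether reads were counted by strand is not given in the sources used here, so the counts of these 5 genes could include reads of the partner.

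Promoter windows of 300 bases, from 250 before to 50 after the annotated start, were available from RefSeq (GRCm38.p6) for 8 of the 10 genes. The 4 below belong to genes that were high in 4 different kinds of cell: Sox2 in progenitors and glia, Sox11 in immature neurons, Sox5 in deep-layer neurons and Sox8 in the oligodendrocyte lineage. Capitals mark matches to the Sox core motifs ACAAT and ACAAAG on either strand, that is also ATTGT and CTTTGT. Windows are written 5′ to 3′ on the gene's strand, for Sox2 chr3:34649745-34650044 (plus), for Sox11 chr12:27342669-27342968 (minus), for Sox5 chr6:143947057-143947356 (minus) and for Sox8 chr17:25570637-25570936 (minus). The Sox5 window belongs to an internal start, since it lies within the gene's span given above and far from its annotated 5′ end.
Sox2: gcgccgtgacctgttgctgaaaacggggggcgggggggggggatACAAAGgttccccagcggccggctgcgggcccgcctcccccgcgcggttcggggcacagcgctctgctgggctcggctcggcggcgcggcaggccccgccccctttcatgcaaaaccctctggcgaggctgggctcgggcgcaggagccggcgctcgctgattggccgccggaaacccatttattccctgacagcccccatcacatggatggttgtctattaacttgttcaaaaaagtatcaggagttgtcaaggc
Sox11: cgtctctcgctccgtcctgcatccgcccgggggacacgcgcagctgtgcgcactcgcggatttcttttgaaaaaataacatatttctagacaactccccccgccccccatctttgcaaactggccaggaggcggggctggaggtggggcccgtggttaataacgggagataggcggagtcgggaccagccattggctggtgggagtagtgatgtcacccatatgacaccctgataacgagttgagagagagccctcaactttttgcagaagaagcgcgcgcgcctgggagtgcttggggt
Sox5: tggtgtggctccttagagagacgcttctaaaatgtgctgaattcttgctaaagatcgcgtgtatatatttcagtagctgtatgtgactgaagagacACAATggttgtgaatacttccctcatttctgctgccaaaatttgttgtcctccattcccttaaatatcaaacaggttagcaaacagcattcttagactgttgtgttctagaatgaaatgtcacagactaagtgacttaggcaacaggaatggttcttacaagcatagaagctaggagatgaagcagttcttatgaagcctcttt
Sox8: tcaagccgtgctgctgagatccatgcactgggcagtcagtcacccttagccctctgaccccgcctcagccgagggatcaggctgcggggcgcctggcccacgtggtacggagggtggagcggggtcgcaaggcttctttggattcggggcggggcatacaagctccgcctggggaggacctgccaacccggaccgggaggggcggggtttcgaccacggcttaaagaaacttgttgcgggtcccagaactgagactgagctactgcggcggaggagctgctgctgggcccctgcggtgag

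The Sox2 window held 1 ACAAAG match, starting at position 45 of the window, and the Sox5 window 1 ACAAT match, starting at position 97. The Sox11, Sox8, Sox1, Sox21 and Sox4 windows held neither motif. All 6 annotated Sox6 windows held at least 1 match. Over all 32851 promoters of this length, 31% held ACAAT, 18.7% held ACAAAG and 42.9% held either. The GC content was 66.3% in the Sox2 and Sox8 windows, 58.7% in Sox11 and 39.7% in Sox5, against a median of 52.7% over all promoters. Such matches describe the letters of the window and not sites of binding.

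D1Tom libraries held 2395 to 3206 cells with median counts of 7198 to 12815 per cell, and GTE libraries 1440 to 3948 cells with medians of 1085.5 to 2982. GTE cKO 1 had the fewest and deepest GTE cells. Foxp2, the targeted gene, was at 36.3, 39.1, 26.5 and 19.4 CPM (counts per 1000000 counts) over all D1Tom cells, and at 266, 218, 75.7 and 62.6 CPM in layer 6 corticothalamic-like cells, where it was lower in both cKO libraries. Over all GTE cells it was at 9.52, 46.9, 25.4 and 7.43 CPM, with overlapping groups, and the 3′ tags counted may lie outside the deleted part. The labels place the preparation of D1Tom control 1 and cKO 1 on one day (batch 1) and that of control 2 and cKO 2 on another (batch 2), while GTE batches are not known. Libraries shared at most 27 cell barcodes, or 0.925% of the smaller library.

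Cell types were rebuilt by clustering and carry names ending in "-like" from fixed marker lists, and clusters that met no list are called by number and leading genes. Sox genes were left out of the clustering, but the types come from the same cells, so levels across types are descriptions without a test. A level is the gene's CPM within the type in a library. It can be compared between types and libraries for 1 gene, and not between genes, because the counts are not scaled by length.

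Sox2 was highest in clusters with glial genes and in progenitor-like cells of D1Tom, and lower in neuron types. Its level was 637, 486, 632 and 484 CPM in cluster 0, a cluster without a name led by Slc7a10, Cldn10, Apoe and Hes5, which are genes of astrocytes. In astrocyte-like cells, whose leading genes were Gfap and the MHC class II genes Cd74, H2-Ab1, H2-Aa and H2-Eb1, Sox2 was at 429.6, 508, 406 and 389 CPM. Both glial lineages carried it, since committed oligodendrocyte precursor-like cells stood at 486 ± 61.2 CPM (SD, n = 4 libraries) and dividing-like cells at 436 ± 47.5 CPM. The lowest of 21 types was cluster 4, led by Ptprk, Arpp21 and Slc18a2, at 19.2 ± 15.6 CPM. Neighbours in the order of types overlapped between libraries.

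Radial progenitor-like cells were too few to enter that order, with 3, 0, 56 and 14 cells. In the 3 libraries that had them, Sox2 was at 869.8 CPM in control 1, 737 in cKO 1 and 804 in cKO 2. These levels lay above those of every type in the order, and Sox9 (638, 632 and 591 CPM) and Sox21 (348, 279 and 286 CPM) did so too. Sox2 and Sox9 are known to be shared by radial glia and astrocytes.

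Sox1 had its highest mean in neuroblast-like cells, a class led by Igfbpl1, Sp9, Dlx2, Sp8 and Dlx5, which are genes of immature interneurons. There it was at 35.5, 70.1, 92.7 and 126 CPM, a spread wide enough to overlap cluster 0 at 63.3, 53, 102 and 46 CPM. Endothelial-like cells, whose leading genes included the mural genes Rgs5 and Higd1b, were lowest at 3.08 ± 2.17 CPM. Sox21 was highest in cluster 6, led by the oligodendrocyte precursor genes Pdgfra, Cspg4 and Gpr17, at 175, 124, 181 and 155 CPM. Cluster 0 at 146 ± 26.1 CPM and dividing-like cells at 127 ± 8.46 CPM followed, so Sox21 spanned both glial lineages as Sox2 did.

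**Figure D1:**
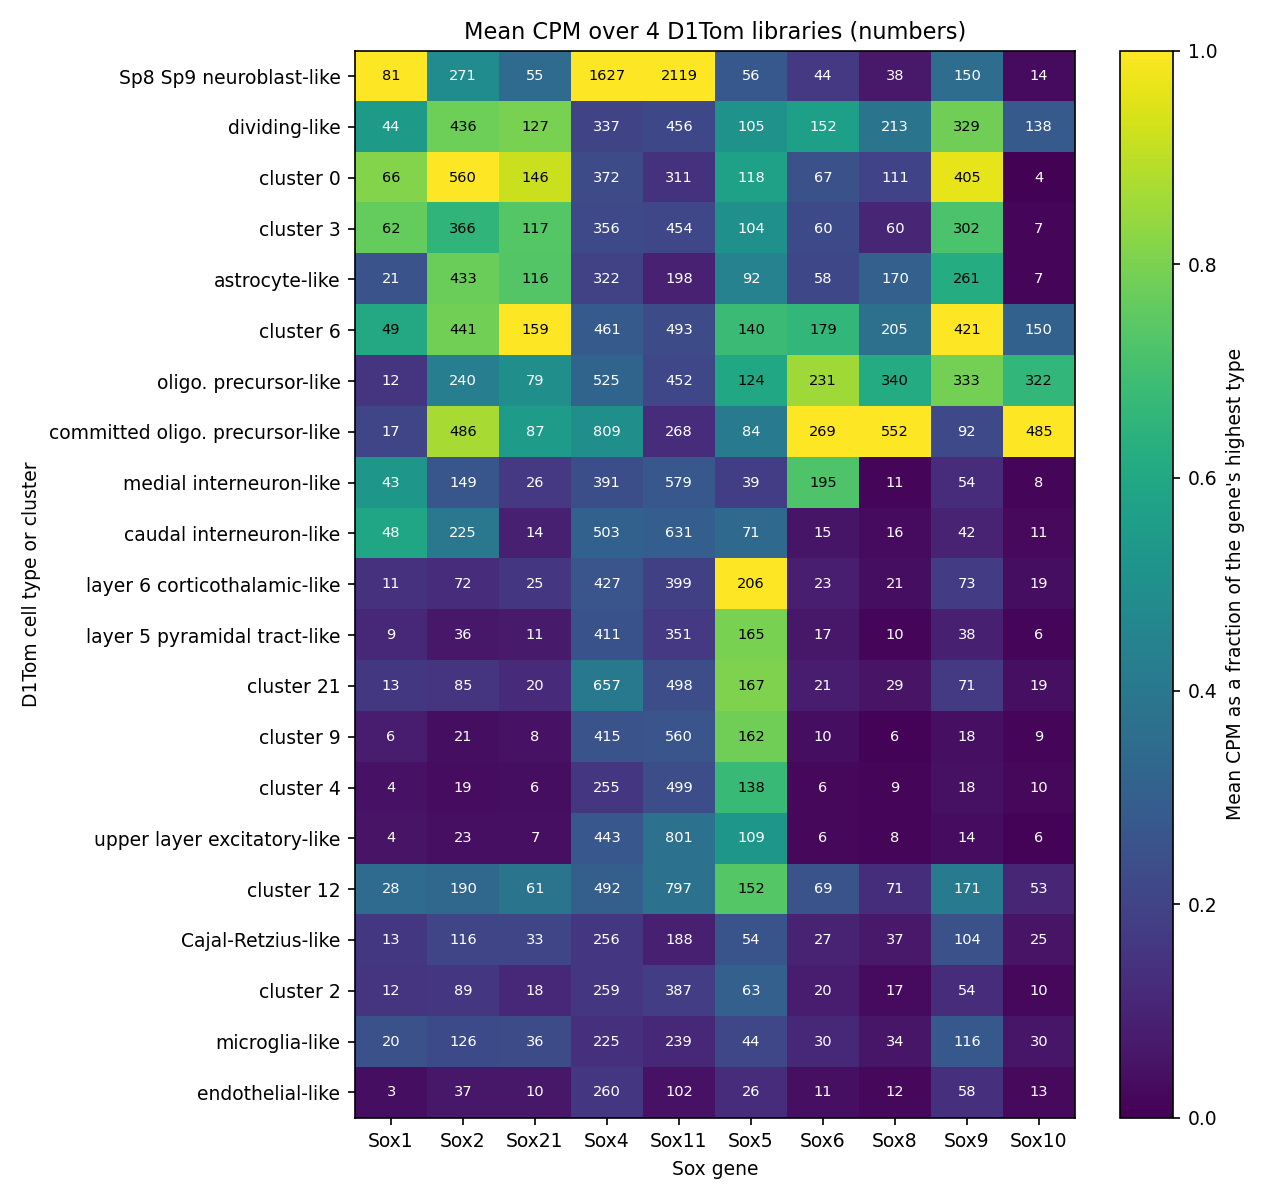
Mean CPM of the 10 Sox genes (columns) over the 4 D1Tom libraries in each of 21 types (rows), printed in each cell, with the colour giving the fraction of that gene's highest type. The Sox11 column is brightest in neuroblast-like cells, the Sox10 column in committed oligodendrocyte precursor-like cells and the Sox5 column in layer 6 corticothalamic-like cells.

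Sox11 was highest in neuroblast-like cells and next in excitatory neuron clusters. Its level in neuroblast-like cells was 1698, 1934, 2137 and 2707 CPM, and no library of the next type reached the lowest of these. Upper layer-like excitatory neurons, led by Ntf3, Inhba, Neurod1 and Mef2c, came next at 801 ± 195 CPM, overlapping cluster 12 (with Zbtb18 and Bhlhe22 among its leading genes) at 797 ± 190.5 CPM. These classes had higher means than caudal and medial interneuron-like cells, at 631 ± 96.1 and 579 ± 84.5 CPM, and than layer 6 corticothalamic-like cells at 363, 381, 460.5 and 391 CPM. Endothelial-like cells were lowest at 102 ± 38.7 CPM. Cluster 12 also carried Sox2 at 190 ± 40 CPM and Sox9 at 171 ± 25.4 CPM. Upper layer-like cells had these genes at 22.9 ± 18 and 14.3 ± 10.5 CPM. Whether RNA of glia entered the counts of cluster 12 was not tested.

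Sox4 had the same highest type but varied more. Neuroblast-like cells were at 2288, 547, 2105 and 1569 CPM, with control 2 (11 cells) far below the others. Committed oligodendrocyte precursor-like cells followed at 809 ± 231 CPM and microglia-like cells were lowest at 225 ± 68.3 CPM. The order of types below the first thus differed between the 2 SOXC genes, with a glial class in second place for Sox4 and neurons for Sox11.

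Both SOXC genes were often detected in the same neuroblast-like cells. To compare shares of cells across depths, every cell was thinned to 1000 counts, and 95% intervals are exact binomial (Clopper-Pearson) and cover counting error only. The share of neuroblast-like cells with a Sox11 count was 70.8% (48.9 to 87.4) in control 1, 90.9% (58.7 to 99.8) in control 2, 76.6% (68.7 to 83.3) in cKO 1 and 83.3% (76 to 89.1) in cKO 2. In endothelial-like cells, taken as the background, it was 8.33% (1.03 to 27) in control 1, 11.5% (6.84 to 17.8) in control 2, 10.5% (1.3 to 33.1) in cKO 1 and 19.1% (11.5 to 28.8) in cKO 2. Without thinning the shares were 100.0, 100.0, 93.6 and 100.0% in neuroblast-like cells, at median counts of 5528.5, 12297, 5648 and 11675.5, and 58.3, 71.6, 68.4 and 66.3% in endothelial-like cells, at 20520.5, 21359.5, 17731 and 14183. The neuroblast-like shares were above the background at equal depth in every library. Of the thinned neuroblast-like cells with Sox4, 14 of 19, 5 of 5, 89 of 109 and 89 of 105 also had Sox11. Most neuroblast-like cells had Sox11 in any case (shares above), so these numbers do not show a link between the 2 genes.

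The SOXD genes were high in different neuron classes. Sox5 was highest in layer 6 corticothalamic-like cells, whose leading genes also held Ctgf and Cplx3 of layer 6b, at 245, 213, 192 and 173 CPM. Layer 5 pyramidal tract-like cells were at 165, 188, 161 and 145 CPM, and cluster 9, led by Neurod6, Fezf2, Cyp26b1 and Oprk1, at 162 ± 27.4 CPM. The other of its 4 highest types was cluster 21, led by Tshz2, Fezf2 and Etv1, at 167 ± 31 CPM.

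Sox6 differed between the interneuron classes. Medial interneuron-like cells were at 246, 191, 181 and 160.0 CPM and caudal interneuron-like cells at 4.27, 29.1, 2.3 and 24.2 CPM, with no overlap. The order of means was the reverse for Sox5, at 38.5 ± 36.3 CPM in medial and 70.6 ± 6.78 CPM in caudal interneuron-like cells, with overlapping libraries. Upper layer-like neurons had the least Sox6, at 5.58 ± 4.02 CPM. The highest means were in the oligodendrocyte lineage, with Sox6 at 401, 147, 336 and 194 CPM in committed precursor-like cells and 306, 164, 297 and 158 CPM in precursor-like cells.

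The contrast between interneuron classes held in shares of cells. Thinned to 1000 counts, the share of medial interneuron-like cells with Sox6 was 22.6% (12.9 to 35) in control 1, 13.7% (5.7 to 26.3) in control 2, 10.4% (5.11 to 18.3) in cKO 1 and 10.7% (2.27 to 28.2) in cKO 2. In caudal interneuron-like cells it was 0.379% (0.00959 to 2.09) in control 1, 0% in control 2 (0 of 122 cells, which allows a share of up to 2.46%), 0.437% (0.0111 to 2.41) in cKO 1 and 0% in cKO 2 (0 of 94 cells, which allows a share of up to 3.19%). Unthinned shares were 59.7, 76.5, 41.7 and 50% and 2.23, 18, 1.73 and 21.3%, at median counts of 8461.5, 15049, 4742 and 5304 in medial and 10091, 12976, 7564 and 11359.5 in caudal cells. In the libraries of batch 2, unthinned caudal cells thus carried Sox6 counts in more cells than in batch 1. No layer 6 corticothalamic-like cell with a thinned Sox5 count (57, 24, 19 and 11 cells) also had Sox6. Sox6 was at 23 ± 12.9 CPM in this type, too low to be counted in many cells at 1000 counts. Whether the 2 genes exclude each other there cannot be told from these cells.

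The SOXE genes differed between the 2 glial lineages. Sox10 was at 711, 313, 606 and 313 CPM in committed oligodendrocyte precursor-like cells and 461, 171, 428 and 227 CPM in oligodendrocyte precursor-like cells. It was at 7.37 ± 5.28 CPM in astrocyte-like cells and lowest of all 21 types in cluster 0, at 3.67 ± 2 CPM. Its 4 highest types, which also include cluster 6 and dividing-like cells, were separate from the next type. Sox8 had the same 2 highest types, at 859, 289, 706 and 355 and 418, 221, 508 and 215 CPM. Unlike Sox10, Sox8 was also present in astrocyte-like cells, at 169.5 ± 27.5 CPM.

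Sox9 was high in both astrocyte-like and oligodendrocyte precursor-like cells. It was at 419, 386, 458 and 420.1 CPM in cluster 6, 391, 363, 482 and 383 CPM in cluster 0, 428, 273, 352 and 278 CPM in oligodendrocyte precursor-like cells and 182, 304, 258 and 299.8 CPM in astrocyte-like cells. In committed precursor-like cells, the next step of the lineage, it was at 0, 86.2, 86.3 and 196 CPM. There Sox9 was below its level in precursor-like cells in every library, where Sox10 was above.

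**Figure D2:**
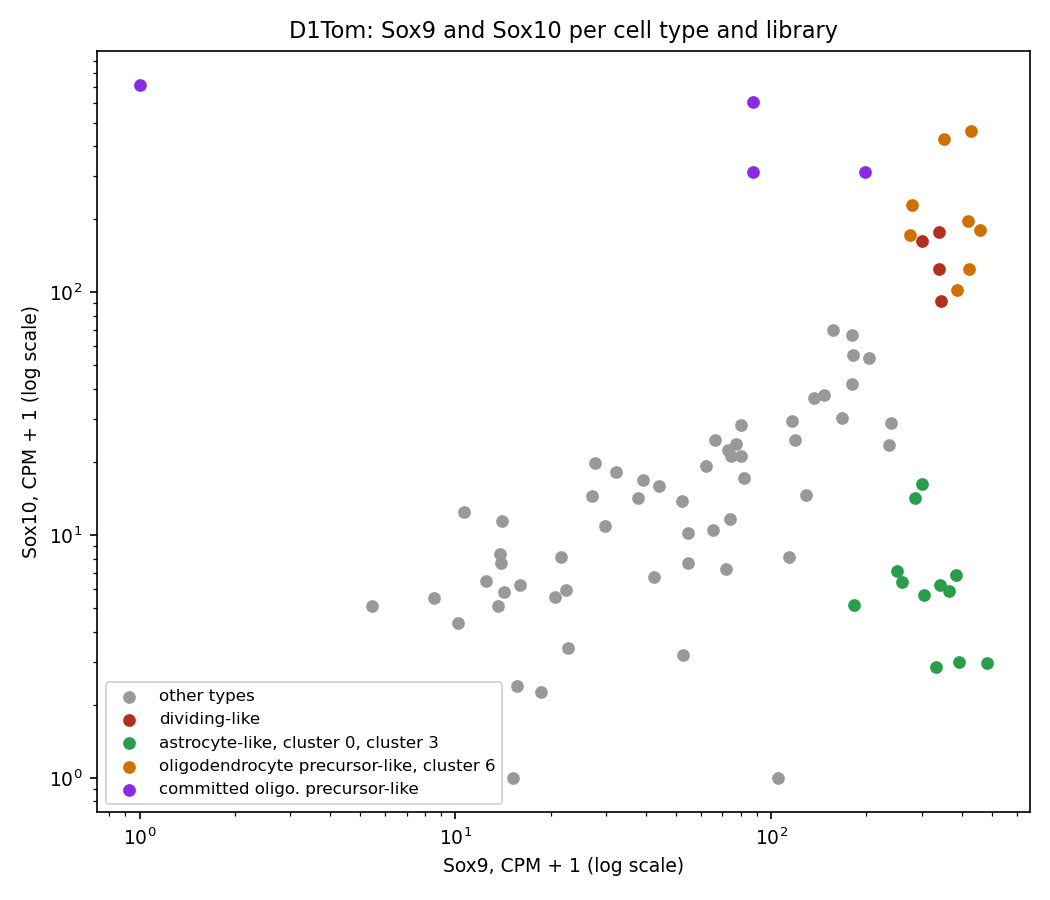
Sox9 against Sox10 (CPM + 1, both axes log scale), 1 point per D1Tom type and library; green points are astrocyte-like cells and clusters 0 and 3, orange are oligodendrocyte precursor-like cells and cluster 6, purple are committed precursor-like cells, red are dividing-like cells and grey are all other types. Green points sit high on Sox9 and low on Sox10, orange points high on both.

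Cells with both Sox9 and Sox10 were seen in oligodendrocyte precursor-like cells and hardly in clusters with astrocyte genes. Thinned to 1000 counts, the share of oligodendrocyte precursor-like cells with Sox10 was 36.2% (31 to 41.6) in control 1, 15.5% (10.3 to 22.1) in control 2, 31.4% (25.8 to 37.4) in cKO 1 and 22% (17.6 to 27) in cKO 2. In astrocyte-like cells it was 0.654% (0.0165 to 3.59) in control 1, 0% in control 2 (0 of 145 cells, which allows a share of up to 2.07%), 0% in cKO 1 (0 of 101 cells, which allows a share of up to 2.97%) and 0.699% (0.0177 to 3.83) in cKO 2. Unthinned shares were 82.4, 68.9, 83.3 and 70.2% at median counts of 6550.0, 9077, 6526 and 6143.5 and, in astrocyte-like cells, 2.61, 2.76, 3.96 and 9.79% at 12692, 11345, 11939 and 8542. The deeper astrocyte-like cells thus had Sox10 in far fewer cells. Of precursor-like cells with Sox10, 35 of 119, 5 of 25, 19 of 81 and 18 of 71 also had Sox9. In cluster 0, 0, 0, 1 and 1 of 206, 43, 135 and 76 cells with Sox9 had Sox10.

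In GTE the glial members were again highest in glial classes. In 9 ordered types, Sox9 was highest in astrocyte-like cells at 275, 594, 697 and 534 CPM, followed by oligodendrocyte precursor-like cells at 456 ± 123 CPM. Sox2 (464 ± 149.6 CPM) was also highest in astrocyte-like cells. Sox10 (178 ± 36.3 CPM), Sox8 (383 ± 157 CPM) and Sox6 (324 ± 125 CPM) were highest in oligodendrocyte precursor-like cells, and Sox10 was lowest in astrocyte-like cells at 3 ± 3.44 CPM. All neighbours in the GTE order overlapped. At the resolution used, no neuroblast-like or deep-layer class was named in GTE, and Sox11 was highest there in cluster 5 at 426 ± 144 CPM.

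Levels in oligodendrocyte precursor-like cells also followed the D1Tom batch. Sox8 was at 418, 221, 508 and 215 CPM there and Sox4 at 607, 392, 685 and 417 CPM, and with Sox10 and Sox6 (above) all 4 were higher in both libraries of batch 1 than in both of batch 2. For Sox10 the log2 difference of batch 2 from batch 1 was -1.42 between the controls and -0.91 between the cKO libraries. In several neuron types the glial members went the other way: Sox9 in layer 5 pyramidal tract-like cells was at 11.5, 51.2, 17.6 and 70.7 CPM and in caudal interneuron-like cells at 21.4, 61.3, 14.7 and 71.7 CPM. Both libraries of batch 2 were above both of batch 1 in each of these neuron types, whatever the genotype. The part of the preparation day in these levels was not tested.

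To see whether Sox levels differed with loss of Foxp2, counts were summed over all cells of each library. No member passed the test in either sort, but 9 of 10 had a positive fitted change in each, with Sox1 and Sox21 furthest in D1Tom and Sox8 and Sox10 furthest in GTE. A level over all cells mixes the RNA per cell with the share of each cell type, and the 2 cannot be told apart in such sums. In D1Tom the 9 positive members stood against 48.5% of 14508 genes with a positive change. The median log2 fold change of cKO over control was 0.41 over the 10 members and -0.01 over all genes tested. edgeR's quasi-likelihood test with Benjamini-Hochberg adjustment, without the batch as a block, called 0 members and 0% of all genes. At an unadjusted p under 0.05 it gave 4 members, with 2.21% of all genes below that mark, and DESeq2 called 0.

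Sox1 in D1Tom was at 20.9, 21.4, 35.3 and 39.5 CPM, both cKO libraries above both controls (21.2 ± 0.385 CPM in controls and 37.4 ± 2.91 CPM in cKO, SD, n = 2). Its log2 fold change was 0.89 ± 0.18 (SE) at an unadjusted p of 0.0029 and an adjusted p of 0.998 in edgeR, and was 0.73 in batch 1 and 0.85 in batch 2. Sox21, at 43.7, 50.1, 66.8 and 81 CPM, had a log2 fold change of 0.73 ± 0.21 (edgeR unadjusted p = 0.0157, adjusted p = 0.998). Both are known from neural progenitors. Sox2, which belongs to the same group as Sox1, was at 206, 180.2, 228 and 266 CPM, again without overlap, and its log2 fold change was 0.44 ± 0.20 (edgeR unadjusted p = 0.0712).

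Among the SOXE genes of D1Tom, Sox10 was at 49, 34.3, 62.7 and 54 CPM and Sox9 at 132, 148, 169 and 214 CPM, and in both the groups did not overlap. The log2 fold change was 0.55 ± 0.18 for Sox10 (edgeR unadjusted p = 0.0215) and 0.53 ± 0.23 for Sox9 (unadjusted p = 0.0648). Sox8 was at 78.5, 66.6, 109 and 74.6 CPM, where cKO 2 lay below control 1, and its log2 fold change was 0.39 ± 0.17. Within batches all 3 SOXE genes were higher in cKO, with Sox10 0.35 in batch 1 and 0.64 in batch 2 on the log2 scale.

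The SOXD and SOXC genes had smaller fitted values. Sox6 was at 57.1, 56.8, 73.4 and 65 CPM, without overlap, and had a log2 fold change of 0.34 ± 0.13 (edgeR unadjusted p = 0.0425). Sox5, at 117, 120.2, 117 and 101 CPM, had -0.06 ± 0.14 and was the single member with a negative fitted change. Sox4, at 465, 352, 545 and 435 CPM, and Sox11, at 522, 513, 516 and 606 CPM, overlapped between genotypes, with 0.33 ± 0.19 and 0.19 ± 0.22. In all, 6 of 10 members had both cKO libraries above both controls, as had 9.7% of all genes, and 8 of 10 were higher in cKO within both batches, as were 18.8% of all genes.

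**Figure D3:**
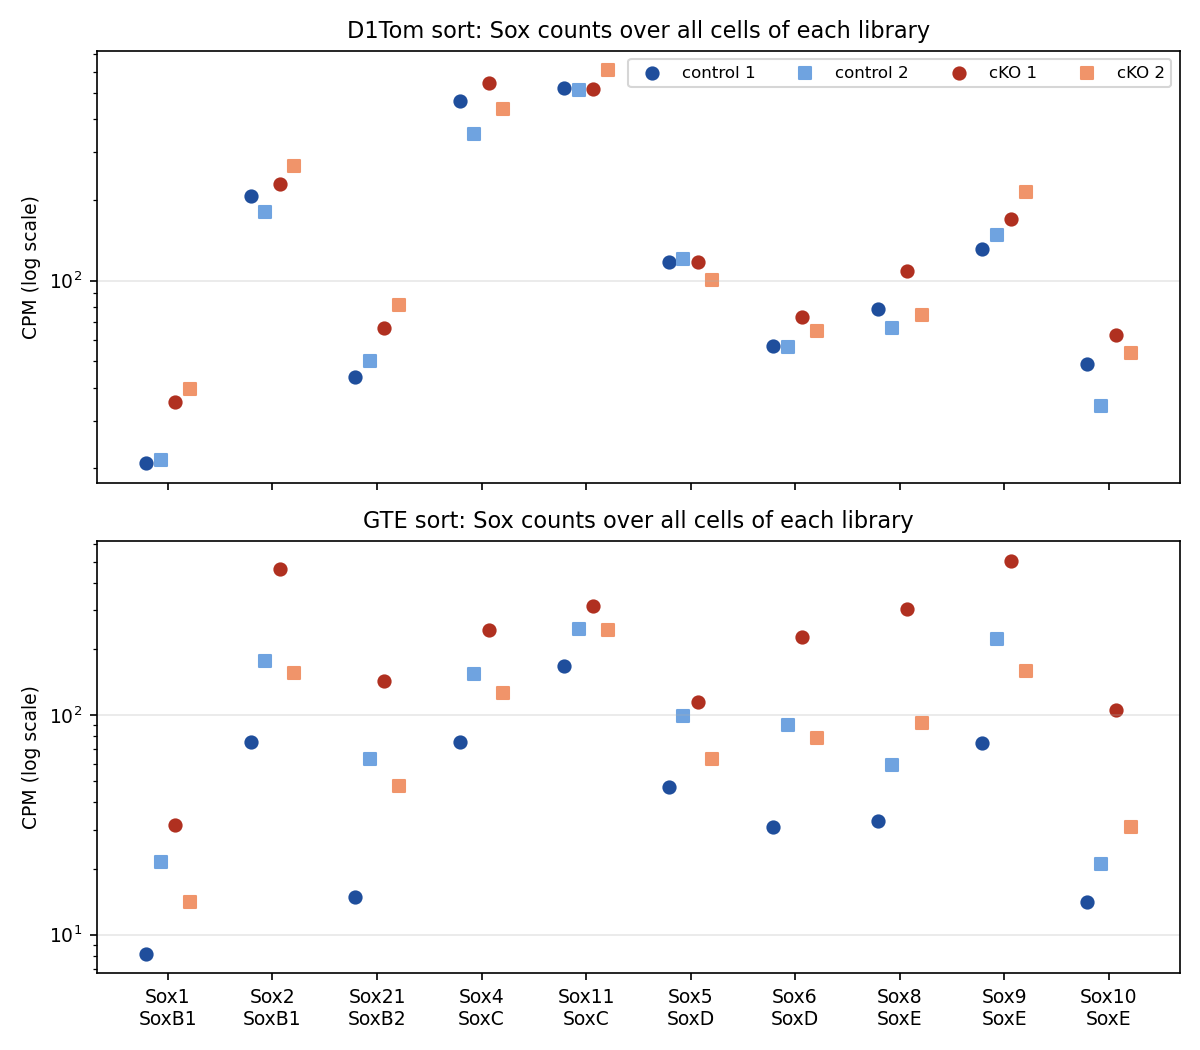
CPM over all cells (log scale) of each Sox gene in each library, D1Tom in one panel and GTE in the other; blue points are control and red points cKO, circles are number 1 and squares number 2. In D1Tom the red points of Sox1, Sox2, Sox21, Sox6, Sox9 and Sox10 lie above the blue ones, and in GTE the red circle of cKO 1 is the highest point for all 10 genes.

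Cell numbers moved with these sums. Neuroblast-like cells numbered 24, 11, 141 and 138 in D1Tom, and upper layer-like neurons 258, 245, 92 and 56. The summed level of all 8 markers of the neuroblast list over all cells was 1850.3, 1556, 1726 and 1496 CPM, so it overlapped between genotypes. Neuroblast-like cells gave 1.26, 1.5, 19.7 and 32.1% of all Sox11 counts, 1.9, 0.617, 18.4 and 25.9% of Sox4 counts and 0.658, 1.3, 12.5 and 22.9% of Sox1 counts. Upper layer-like neurons gave 31.3, 20.7, 10.9 and 3.22% of Sox11 counts. Thus the near-level Sox11 sum was drawn from different cells in the 2 genotypes. Without neuroblast-like and radial progenitor-like cells, an alternative chosen after seeing these numbers, the log2 fold change of Sox11 turned to -0.15 and that of Sox1 was 0.65, and 0 members were called.

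Of the glial marker lists, the astrocyte list had a summed level of 3457, 3667, 3881 and 5036 CPM and the oligodendrocyte precursor list 1946, 1317, 1931 and 1622 CPM, with every marker of both above 0 in each library. Later oligodendrocyte stages had 249, 289, 424 and 325 CPM on the committed precursor list and 135, 165, 266 and 186 CPM on the oligodendrocyte list, and the dividing list had 251, 249.7, 313 and 295 CPM. Both cKO libraries were thus above both controls on 4 of these lists and not on the precursor list. As shares of cells, oligodendrocyte precursor-like cells made up 10.3, 6.72, 9.17 and 10.5% and astrocyte-like cells 4.77, 6.05, 3.59 and 4.64%. The genotypes overlapped in the first and both cKO libraries were below both controls in the second. Clusters 0 and 3, with astrocyte genes, and cluster 6, with precursor genes, are not part of these named classes. Cluster 0 made up 20.7, 5.26, 13.9 and 7.4% and cluster 3 made up 1.62, 9.73, 5.62 and 16.5%. Cluster 6 made up 0.811, 8.89, 2.42 and 9.57%, and the genotypes overlapped in each of these clusters. The part of these differences in the member values was not tested.

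In GTE, Sox8 and Sox10 were the members with both cKO libraries above both controls, a pattern shared by 19.6% of 12042 genes. Sox8 was at 33, 59.2, 305 and 92.3 CPM, with a log2 fold change of 1.61 ± 0.57 (edgeR unadjusted p = 0.00541, adjusted p = 0.745). Sox10 was at 14.1, 20.9, 105 and 30.9 CPM, with 1.44 ± 0.53 (unadjusted p = 0.00749, adjusted p = 0.745). cKO 1 stood far above the other 3 libraries in both genes, and it was the highest library for all 10 members. Without it the log2 fold changes were 1.04 for Sox8 and 0.84 for Sox10. edgeR called 0 members and 0.0332% of all genes, and 2 members had an unadjusted p under 0.05, as had 5.22% of all genes. DESeq2 also called 0.

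The other GTE members overlapped between genotypes. Sox2 was at 75.5, 176, 462 and 155 CPM (0.84 ± 0.63), Sox9 at 74.4, 221, 505 and 159 CPM (0.72 ± 0.64) and Sox6 at 31, 90, 226 and 78.7 CPM (0.90 ± 0.55). Sox21 was at 14.8, 63.3, 142 and 47.6 CPM (0.87 ± 0.54), Sox1 at 8.21, 21.3, 31.6 and 14.1 CPM (0.23 ± 0.54) and Sox4 at 75, 154, 245 and 126 CPM (0.29 ± 0.58). Sox11 was at 168, 246, 312 and 244 CPM (0.06 ± 0.65) and Sox5 at 47.1, 99, 115 and 62.8 CPM (-0.11 ± 0.53). In each of these 8 genes GTE control 1 was the lowest library and cKO 1 the highest. The median log2 fold change was 0.78 over the members and -0.05 over all genes, with 9 of 10 members against 46.9% of all genes above 0.

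Glial content moved with these values in GTE. Astrocyte-like cells made up 5.81, 10.8, 38.1 and 7.72% of clustered cells and oligodendrocyte precursor-like cells 2.52, 5.42, 24.9 and 4.17%. The summed level of the oligodendrocyte precursor list was 1794, 2071, 6306 and 2446 CPM, and that of the general neuron list 3189, 3648, 1632 and 2762 CPM. cKO 1 was thus the library richest in both glial classes and lowest on the neuron list. The part of this in the Sox values was not tested. Within oligodendrocyte precursor-like cells both cKO libraries were above both controls for Sox8, at 246, 250.2, 543 and 493 CPM (log2 fold change 0.92 ± 0.46, edgeR unadjusted p = 0.0498), and for Sox10, at 167, 133, 217 and 196 CPM. The same held for 19.4% of the 7848 genes tested in that type.

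**Figure D4:**
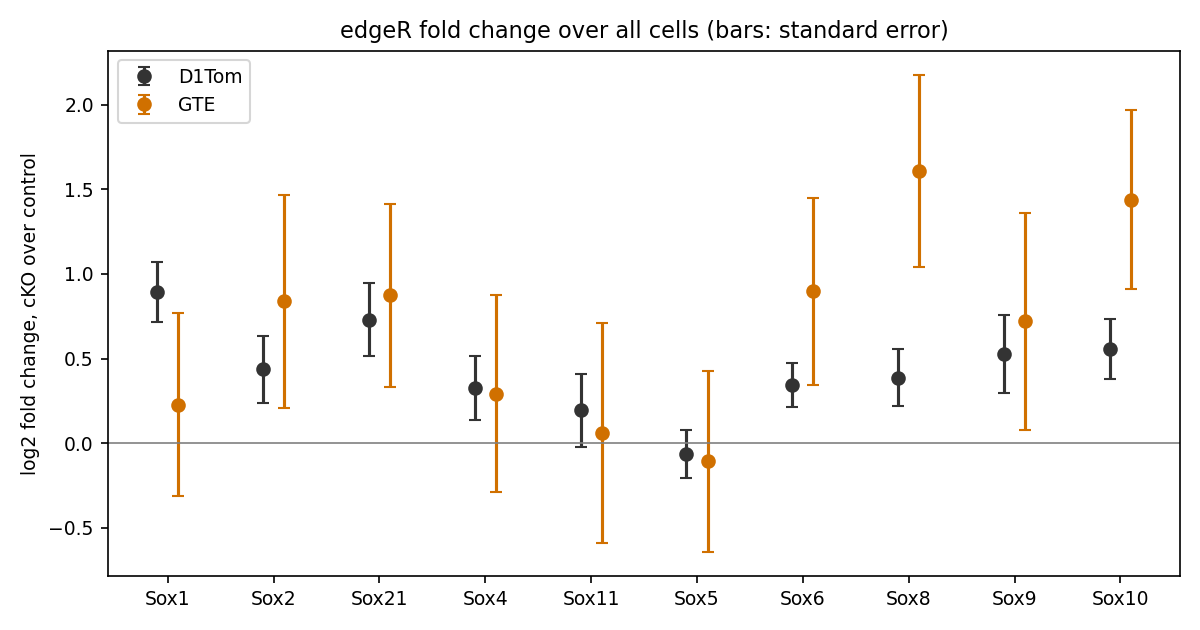
Log2 fold change of cKO over control in summed counts of all cells, with its SE, for the 10 Sox genes in D1Tom (dark) and GTE (orange). 9 of 10 genes lie above 0 in each sort, and the GTE bars are the wider ones.

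The difference between sorts was tested as an interaction over all 8 libraries. edgeR called 0 of 10 members (0% of 14026 genes), and DESeq2 called 0. The smallest p-value was that of Sox8, with a log2 difference of GTE from D1Tom of 1.23 ± 0.53 (SE, edgeR unadjusted p = 0.0429, adjusted p = 0.941).

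Within cell types, the smallest p-values of D1Tom members were those of Sox11 in 2 excitatory classes. Types with at least 30 cells in each library were fitted, 14 in D1Tom and 8 in GTE. In D1Tom edgeR called 0 of 133 tests of members (0.00772% of all 142565 gene and type tests were called), and 6 reached an unadjusted p under 0.05. With DESeq2 it was 0 of 140, and 4 at that mark. The share of all gene tests at that unadjusted mark was not summed over types, so these counts have no background beside them.

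Sox11 in upper layer-like neurons was at 1017, 905, 694 and 589 CPM (961 ± 79.1 CPM in controls and 641 ± 74.6 CPM in cKO, SD, n = 2). Both cKO libraries were below both controls, as were those of 12.8% of 11119 genes. Its log2 fold change was -0.60 ± 0.15 (edgeR unadjusted p = 0.00406, adjusted p = 1), and -0.55 in batch 1 and -0.62 in batch 2. With the batch as a block the adjusted p was 0.0826. Thinned to 1000 counts, the share of these cells with Sox11 was 59.7% (53.4 to 65.7) in control 1, 50.6% (44.2 to 57) in control 2, 45.7% (35.2 to 56.4) in cKO 1 and 42.9% (29.7 to 56.8) in cKO 2, with overlapping intervals, and it was 99.6, 98.4, 97.8 and 98.2% unthinned.

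Cluster 9, the Fezf2-expressing excitatory cluster, had Sox11 at 695, 634, 439 and 475 CPM. Its log2 fold change was -0.54 ± 0.16 (edgeR unadjusted p = 0.00631, adjusted p = 1), and -0.66 in batch 1 and -0.42 in batch 2. Both cKO libraries were below both controls, as for 14.4% of 10926 genes. With the batch as a block the change was called, at -0.54 with an adjusted p of 0.00629 in edgeR, while with finer clusters it was -0.30 and not called. Cluster 4 went the same way, at 765, 469.6, 464 and 298 CPM (-0.72 ± 0.37, unadjusted p = 0.0661 in edgeR, with 12.7% of 9045 genes below in both cKO libraries).

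Other neuron types had another order of libraries for Sox11. Neuroblast-like cells, too few for a fit, were lowest in control 1 and highest in cKO 2 (values above). Cluster 12 was at 1056, 689, 625 and 817 CPM, with overlapping groups. Layer 6 corticothalamic-like cells, a class known for Foxp2, were at 363, 381, 460.5 and 391 CPM, both cKO libraries above both controls, as for 16.4% of 10346 genes. Whether the change differed between types was not tested.

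**Figure D5:**
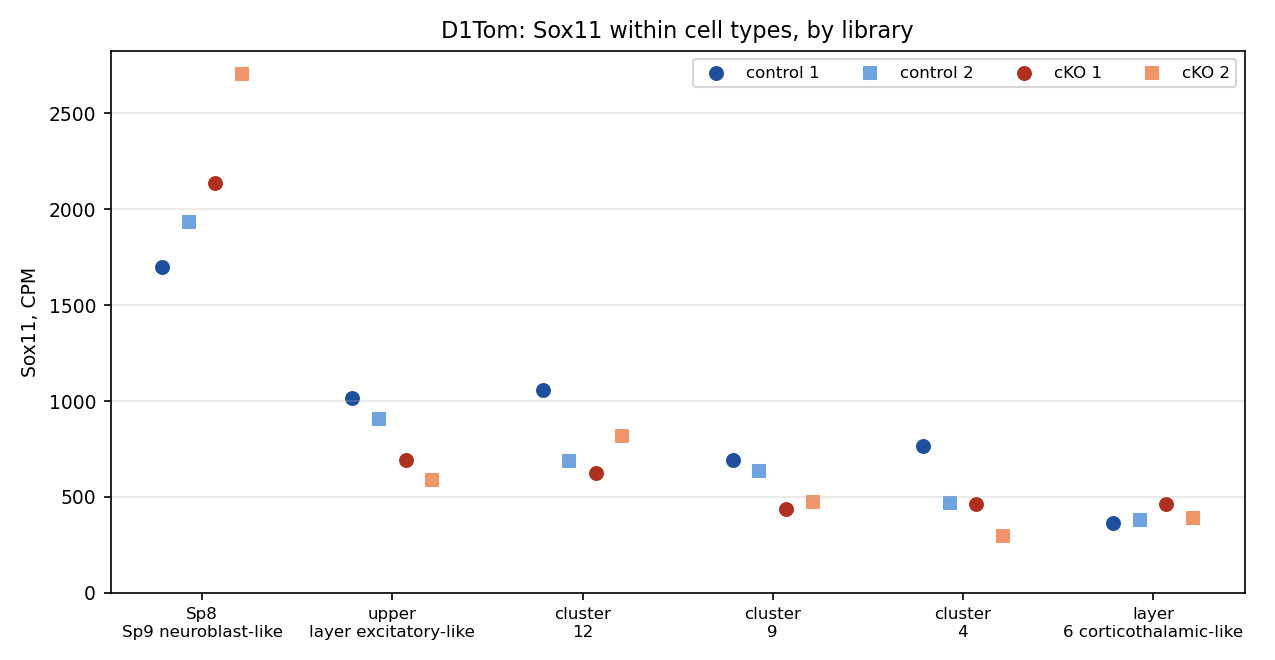
Sox11 in CPM by library in 6 D1Tom types (neuroblast-like, upper layer-like, clusters 12, 9 and 4, and layer 6 corticothalamic-like cells), blue for control and red for cKO, circles for number 1 and squares for number 2. The red points lie below the blue ones in upper layer-like cells and in clusters 9 and 4.

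In several glial types of D1Tom and in dividing-like cells the fitted differences between genotypes centred near 0. The median log2 fold change over the tested members was 0.10 in oligodendrocyte precursor-like cells, 0.00 in astrocyte-like cells, 0.09 in cluster 0 and 0.11 in dividing-like cells. In cluster 3, with astrocyte genes, the fitted changes ran from -0.04 for Sox11 to 0.96 for Sox10, and only Sox11 was negative. Sox10 was at 6.62 ± 4.79 CPM there. Sox9, the astrocyte regulator, was at 182, 304, 258 and 299.8 CPM in astrocyte-like cells and Sox2 at 637, 486, 632 and 484 CPM in cluster 0, with overlapping groups. Neuron types varied, with medians of 0.74 in layer 6 corticothalamic-like, 0.65 in cluster 9, 0.56 in Cajal-Retzius-like, 0.39 in upper layer-like, 0.20 in cluster 12, 0.07 in caudal interneuron-like and -0.09 in layer 5 pyramidal tract-like cells. Sox5, highest in layer 6 corticothalamic-like cells, had a log2 fold change of -0.36 ± 0.18 in them (edgeR unadjusted p = 0.0897). Every other member had a positive value in that type.

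The remaining 4 small p-values in D1Tom came from members at low levels in neurons. Sox8 in upper layer-like neurons was at 3.77, 4.51, 7.51 and 17.6 CPM (1.45 ± 0.53, edgeR unadjusted p = 0.0243). Sox10 was at 4.11, 4.55, 6.68 and 18.9 CPM in cluster 9 (1.37 ± 0.59) and 7.11, 16.2, 22.8 and 28.4 CPM in layer 6 corticothalamic-like cells (1.13 ± 0.47). Sox1 in layer 5 pyramidal tract-like cells was at 2.19, 6.16, 6.91 and 21.8 CPM (1.65 ± 0.72). In each of the 4 cases cKO 2 was the highest library.

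With the batch as a block, 4 of the 133 D1Tom tests were called, against 0.385% of all tests. Besides Sox11 in cluster 9 these were Sox9 in layer 6 corticothalamic-like cells (log2 fold change 1.07, edgeR adjusted p = 0.00892), and Sox2 (1.42, adjusted p = 1.63e-06) and Sox9 (0.90, adjusted p = 0.0198) in Cajal-Retzius-like cells. Sox9 in layer 6 corticothalamic-like cells was at 20.6, 80.7, 76.5 and 116 CPM. In Cajal-Retzius-like cells, early-born neurons at the cortical surface, of which there were 50, 72, 39 and 57, Sox2 was at 3.61, 148, 99.4 and 214 CPM and Sox9 at 21.7, 135, 79.2 and 179 CPM. Control 1 was lowest in all 3 cases, and within batch 1 its distance from cKO 1 was the larger one. Other glial members were also lowest in control 1 there, with Sox21 at 0, 47.4, 28.8 and 55.6 CPM and Sox8 at 0, 65.3, 31.7 and 52.9 CPM, and whether RNA of glia entered these neurons' counts was not tested. Without control 2, 5 member tests were called (0.294% of all tests): Sox2, Sox21, Sox8 and Sox9 in Cajal-Retzius-like cells and Sox6 in cluster 2. The control arm is then control 1 alone, which is assumed to vary as the cKO libraries do, and it had 0 counts of Sox21 and Sox8 and 3 of Sox2 there, so no fold is given.

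In GTE edgeR called 0 of 63 member tests (0.0108% of all 46338 tests), with 14 at an unadjusted p under 0.05. DESeq2 called 0 of 80 and gave 13 at that mark. The counts of 14 and 13 likewise have no share of all gene tests beside them. Sox8 was among the 14 in 5 types, one of them dividing-like cells at 80.4, 76, 407 and 243 CPM (1.82 ± 0.62, edgeR unadjusted p = 0.00336, adjusted p = 0.539). In cluster 2, led by the ribosomal genes Rpsa and Rplp0 and by Tpt1, Sox8 was at 23.1, 4.05, 693 and 7.39 CPM and Sox10 at 7.7, 0, 372 and 2.96 CPM. In cluster 0, led by the neuronal genes Stmn1, Rab3a and Nrgn, Sox10 was at 2.47, 2.88, 145 and 4.23 CPM. In clusters 0 and 2 cKO 1 alone was high, while cKO 2 lay within or near the controls. Without cKO 1, 0 member tests were called and 0 had an unadjusted p under 0.05. Without cKO 2, 11 were called (3.1% of all tests), in clusters 0, 1 and 2, and without control 2 it was 1 (0.396% of all tests), Sox9 in dividing-like cells, where the lone control library had 4 counts.

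Genes known to be controlled by, or to act beside, these factors were read from 6 lists, over all cells. None was called in edgeR in either sort. Over all genes tested, 48.5% had a positive change in D1Tom and 46.9% in GTE, with median log2 fold changes of -0.01 and -0.05. In edgeR, 2.21% of all genes in D1Tom and 5.22% in GTE had an unadjusted p under 0.05. Of 12 oligodendrocyte genes tied to SOXE, all 12 tested had a positive change in D1Tom and 5 an unadjusted p under 0.05, with a median log2 fold change of 0.53. Cnp, a myelin enzyme, had 0.53 ± 0.15 (unadjusted p = 0.0115) and Gpr17, a receptor of committed precursors, 0.72 ± 0.22 (unadjusted p = 0.0186). In GTE 10 of 10 tested were positive, with a median of 1.10. In GTE the share of glial cells, given above, was also highest in cKO 1.

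Of 10 astrocyte genes, 8 were positive in D1Tom with a median of 0.25 and 3 in GTE with a median of -0.13. Slc1a3, a glutamate transporter, had 0.42 ± 0.24 in D1Tom and Aldh1l1 0.47 ± 0.27. The 10 progenitor genes beside SOXB1 gave 7 positive in D1Tom, with a median of 0.13, and 5 of 9 in GTE, with 0.50. Pax6, a regulator of dorsal progenitors, had 0.87 ± 0.18 (edgeR unadjusted p = 0.00373) and Gli3, an effector of hedgehog signalling, 0.82 ± 0.23 (unadjusted p = 0.0123).

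The neuronal lists had medians below that of all genes in both sorts, though only slightly for the SOXD list in D1Tom. Of 10 genes beside SOXC, 4 were positive in D1Tom with a median of -0.17 and 1 in GTE with a median of -0.75. Igfbpl1, which led the neuroblast-like class, had 2.08 ± 0.34 (edgeR unadjusted p = 0.00114), and Neurod2, a regulator of excitatory neurons, -0.71 ± 0.19 (unadjusted p = 0.01). Of 10 genes beside SOXD, 4 were positive in D1Tom with a median of -0.06 and 1 of 9 in GTE with a median of -0.68. Tbr1, a layer 6 regulator, had -0.34 ± 0.15 (edgeR unadjusted p = 0.0601). The number of upper layer-like cells was also lower in cKO of D1Tom, as given above, and its part in these values was not tested.

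Genes with the most similar pattern were ranked by Pearson's r of log2(CPM + 1) over 14 D1Tom types in 4 libraries, 56 points that share libraries and depth, among 9531 genes. These r values are descriptions. For Sox2 they were Npas3 (0.97), Pdlim5 (0.962) and Sall1 (0.961). For Sox1 the closest was Egfr (0.944), and for Sox21 they were Tcf7l2 (0.975), Myo10 (0.959) and Tril (0.954). Sox9 ran closest to Ednrb (0.975), Zfp36l1 (0.973) and Itgav (0.972), and Zfp36l1 also came first for Sox8 (0.959) and Sox6 (0.944). The next were Prrx1 (0.933) and Arhgap31 (0.93) for Sox8 and Arhgap31 (0.934) and Itgav (0.927) for Sox6.

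Sox10 ran closest to Gpr17 (0.957), Pdgfra (0.954) and Lhfpl3 (0.946), all known from oligodendrocyte precursors. Sox5 ran closest to the protocadherins Pcdh7 (0.886) and Pcdh19 (0.85) and to Mpped2 (0.845). The SOXC genes had no partner as close: Sox11 reached 0.834 with Bach2, 0.832 with AC166328.1 and 0.82 with Chn2, and Sox4 0.764 with Fam110b, 0.729 with Pdik1l and 0.709 with Zfp354c. Among the members, Sox9 and Sox21 were the closest pair (0.945), and Sox9 and Sox11 stood at -0.217.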

How the data were processed

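Single-cell RNA sequencing of 8 libraries (per the labels' protocols, 10x Genomics Chromium 3′ v2 and a NextSeq 500 sequencer) was analysed from 2 tables of raw counts per gene and cell that the authors deposited. The submitters' processing notes name bcl2fastq 2.17.1.14, Cell Ranger 2.1.1, FastQC 0.11.5, UMI-tools 0.5.4, STAR 2.5.2b, featureCounts, Subread 1.6.2 and SAMtools 1.6, and the builds mm10 and GRCm38.p6. The ratio of values of 2 to values of 1 ran from 0.307 to 1.69 over D1Tom libraries and from 0.923 to 1.35 over GTE, so the counts do not behave as plain numbers of molecules and no Poisson interval was used. The 10 Sox genes and the gene lists were chosen with earlier results of these data known.

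Clustering, without the Sox genes, was run per sort on cells of 500 counts or more, which left out 143 GTE cells. It used 2000 variable genes standardised within each library, 30 components, 20 neighbours and Leiden resolution 1 (leidenalg 0.10.2). A cluster took the name of 1 of 22 marker lists with at least 3 markers at 2-fold or more. Rules that its 10 leading genes must not go against the name and that at least 2 markers be among its top 50 genes were set after seeing the clusters. No doublets were removed, and an alternative left out the highest doublet scores at 0.8% per 1000 cells.

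Counts were summed per library or per type and library and tested with edgeR 4.0.16 in R 4.3.3 (quasi-likelihood, TMM, filterByExpr, adjusted p under 0.05), 2 libraries against 2, with p-values adjusted over all genes within each fit, that is per sort for all cells and per type. DESeq2 1.42.0, library totals alone, no filter, a replicate block, each library left out and resolution 2 were alternatives. Levels are counts per 1000000 of the summed total, without TMM. Types with at least 10 cells per library entered the order of levels. Same-numbered D1Tom libraries share a preparation day per the labels, and their deviations from the group means correlated at 0.499 across 14508 genes, so the number pairs them. The D1Tom p-values and SE do not use this pairing unless the batch is named as a block. In every comparison all 10 Sox genes were named, with the 2 genes of smallest unadjusted p in D1Tom from each list and the 3 most similar genes for each Sox gene. Some genes that this rule names are not reported here.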

Additional observations from a re-analysis of the deposited data

How the results depend on the processing

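Among the counts of called members, edgeR called 0 over all cells of D1Tom and of GTE and 0 for the interaction under every alternative run for them, DESeq2, library totals alone, no filter, doublet removal and each library left out included where planned. Within D1Tom types the count of called members was 0 to 5 with 1 library left out, the 5 coming without control 2. Within GTE types it was 0 to 11, with 11 without cKO 2 and 1 without control 2. With the D1Tom replicate block 4 member tests within types were called, and it changed no other call of a member. For GTE the numbers share no stated batch, and the deviations of same-numbered libraries correlated at -0.347 across 12042 genes. The GTE replicate block called 0 members, as did the crossed pairing, added after seeing the data, which called 24 of 12042 genes over all cells. The mean share of cells with a Sox count was 13.8% at 1000 counts, 7.83% at 500, 22.7% at 2000 and 44.9% without thinning. The highest named type stayed for 10 of 10 genes without the highest doublet scores and for 9 of 10 at resolution 2, where Sox9 moved from oligodendrocyte precursor-like to dividing-like cells.

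Several small log2 fold changes changed sign, and the cause was not tested. With 1 library left out, over all D1Tom cells Sox11 ran from -0.045 to 0.40 and Sox5 from -0.13 to 0.0054. Over all GTE cells Sox1 ran from -0.18 to 0.83, Sox11 from -0.14 to 0.26 (-0.01 without control 1) and Sox5 from -0.40 to 0.30. In the interaction Sox2 ran from -0.089 to 0.84, Sox21 from -0.43 to 1.20, Sox4 from -0.27 to 0.29, Sox11 from -0.33 to 0.094, Sox5 from -0.30 to 0.30 and Sox9 from -0.36 to 0.86. In Cajal-Retzius-like cells Sox9 ran from -0.046 to 2.60. Without neuroblast-like and radial progenitor-like cells Sox11 in D1Tom was -0.15. Library totals alone moved the median of all GTE genes to 0.376 and Sox5 to 0.28. With 2 libraries a group, a difference of the size of most members' could not be told from the spread between libraries.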

Other observations

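Of 9 other Sox genes that were looked up, 8 are rows of the D1Tom table. The SOXF genes, known from blood vessels, were found in endothelial-like cells. Sox17 was there at 116, 143, 123 and 146 CPM, Sox18 at 41.5, 68, 53.4 and 76.1 CPM and Sox7 at 77.2, 74, 63.3 and 76.1 CPM, with overlapping genotypes for all 3. Sox7 was also at 41.7, 32.6, 36.9 and 28.4 CPM in cluster 0, the cluster with astrocyte genes. Sox13, a SOXD gene, was at 30, 30.1, 21.8 and 31.5 CPM in endothelial-like cells. Sox12, a further SOXC gene, was at 66, 74.5, 71.3 and 69.2 CPM over all D1Tom cells. Sox3, a further SOXB1 gene, was at 11, 8.62, 14 and 13.2 CPM over all D1Tom cells, with both cKO libraries above both controls and a log2 fold change of 0.54 ± 0.19 (SE, edgeR unadjusted p = 0.029, adjusted p = 0.998). Its highest mean was in oligodendrocyte precursor-like cells, at 35 ± 11.7 CPM (SD, n = 4). Over all cells 4 of 7 tested other Sox genes had a positive change in D1Tom and 2 of 4 in GTE. Of all genes, 48.5% did so in D1Tom and 46.9% in GTE. None of these other Sox genes was called in edgeR.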
